A study of Mus musculus with 16 samples.

Results

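The genes followed here belong to the CC chemokine system and were measured in wounds of WT and db/db mice. They are the ligands Ccl2, Ccl3, Ccl4, Ccl5, Ccl7, Ccl8, Ccl11, Ccl12 and Ccl24, and the receptor Ccr2. They were chosen by name as the CC chemokines known for drawing monocytes, eosinophils and T cells, and were read through every array probe whose accession RefSeq assigns to one of them. This gave 10 genes of the 20832 that carried a symbol, with 1 probe for each gene. All 10 probes were well above background on all 16 arrays.

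The WT group was female C57BL/6J mice and the other groups were female db/db mice of the C57BLKS/J strain, which lack a working leptin receptor and become obese and diabetic. The db/db group was untreated. In the db/db + estrogen group the wounds were treated every day with topical estradiol benzoate in sesame oil, and in the db/db + vehicle group with the oil alone. All groups had full-thickness wounds of the back skin under a hydrocolloid dressing. Each group had 2 arrays labelled day 7 and 2 labelled day 14. WT and db/db mice differ in strain as well as in the leptin receptor, and the untreated db/db group received no oil, so that these differences cannot be told apart within the respective comparisons. The RNA came from pieces of wound with the skin around it, in which fewer cells of a type and less RNA per cell cannot be told apart. The sources used here do not say whether each array held the RNA of 1 mouse, so the p-values measure the spread between arrays.

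Chemokines are small secreted proteins that guide leukocytes along a gradient through receptors on the cell surface. In a healing wound the CC family brings in blood monocytes, which turn into macrophages, as well as eosinophils and T cells. CCR2 is the receptor by which inflammatory monocytes follow CCL2, CCL7 and CCL12. CCL3 and CCL5 act on CCR1, which monocytes and other leukocytes carry. The eotaxins CCL11 and CCL24 attract eosinophils through CCR3, and mouse CCL8 acts on CCR8, which is found on T helper type 2 cells.

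Levels are the log2 of the processed signal minus the log2 of the array's 75th percentile, so that 0 is the level of the 75th percentile and 1 unit is a doubling. They were compared between groups for the same probe, never between probes. A probe was called when limma gave an unadjusted p below 0.05 and a fold change above 2, and the p adjusted over all probes of the comparison (Benjamini-Hochberg) is given as adjusted p. Between arrays the 75th percentile of signal varied from 1091 to 2548, and 70.1% to 79.0% of the probes were well above background. Arrays labelled day 7 lay on 2 slides, with replicate 1 of every group on slide 1 and replicate 2 on slide 2. Of the arrays labelled day 14, slide 3 held both db/db arrays and slide 4 both WT arrays, so that db/db and WT were compared across slides on this labelled day. Each of these slides also held 1 array of either treated group, through which a fit with slide as a fixed block can separate slide from group. Labelled day and slide cannot be told apart. Fold changes printed by the study for one day have their counterparts on the arrays labelled with the other day, and it is not settled which of the labels and the printed days is right. Arrays are therefore named by their labels.

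Between db/db and WT on labelled day 7, 4 of the 10 genes were called higher in the db/db group (Ccl2, Ccl3, Ccl4 and Ccl12), where 5.68% of all probes tested were called higher, and 2 were called lower (Ccl5 and Ccr2), against 8.42% of all probes. For labelled day 14, 2 genes were called higher (Ccl2 and Ccl3) with 2.36% of all probes, and 1 was called lower (Ccr2) with 15.6% of all probes. That lower count was no larger than the background. With estrogen, 4 genes were called lower than in untreated db/db wounds on labelled day 7 (Ccl2, Ccl3, Ccl4 and Ccl7, background 4.7%) and 1 higher (Ccl8, background 5.22%). For labelled day 14, the lower calls were Ccl3 and Ccl4 (background 1.35%) and the higher call was Ccl12 (background 2.56%). In the db/db + vehicle group against the same db/db arrays, Ccl3 and Ccl4 were called lower (background 2.3%) and Ccl5 higher (background 2.52%) on labelled day 7. For labelled day 14, Ccl3 and Ccl4 were again called lower (background 2.2%), and Ccl11 and Ccr2 higher (background 5.31%). When the estrogen and vehicle groups were compared directly, Ccl2, Ccl3 and Ccl7 were called lower (background 4.32%) and Ccl11 higher (background 4.66%) on labelled day 7. With the arrays labelled day 14 limma called 0 of the 10 genes, where 0.507% of all probes were called higher and 0.473% lower, and 0 had an unadjusted p below 0.05. With the adjusted p in the call, 5 of the 10 genes were called between db/db and WT on labelled day 7, where 9.07% of all probes were called in either direction, and 1 on labelled day 14, below the 13.5% of all probes. With estrogen against db/db 3 genes were called on labelled day 7 (4.83% of all probes) and 0 on labelled day 14 (0.0991%). With vehicle against db/db the counts were 1 (0.148%) and 0 (0.193%). Between estrogen and vehicle 0 genes were called on either labelled day, where 2.56% and 0% of all probes were called. The 10 genes had a median log2 fold change in db/db against WT of 1.04 (labelled day 7) and 0.70 (labelled day 14), beside −0.05 and −0.12 over all probes tested.

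**Figure D1:**
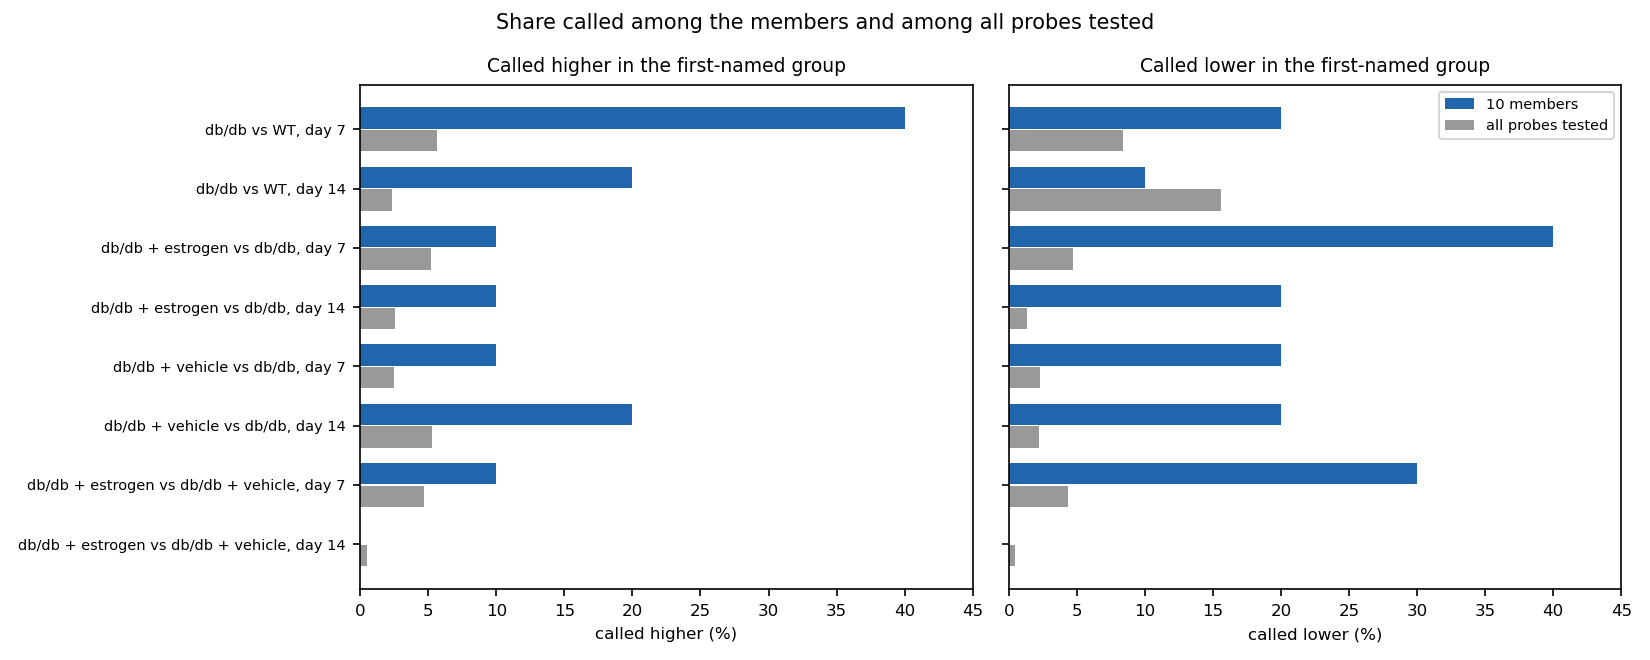
Share of the 10 genes (blue) and of all probes tested (grey) that were called higher (left) or lower (right) in the first-named group of each comparison, in percent on a linear axis from 0; with 10 genes each blue step is 1 gene. The blue bars stand furthest from the grey for higher calls in db/db against WT and for lower calls with estrogen against db/db, both on labelled day 7, and no gene was called between estrogen and vehicle on labelled day 14.

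Promoter sequences of 4 of the 10 genes (Ccl3, Ccl8, Ccl12 and Ccr2) were found in the RefSeq table of build GRCm38.p6. Those of Ccl3, which was called lower in both treated db/db groups, and of the neighbouring genes Ccl8 and Ccl12, each called higher with estrogen on 1 labelled day, are shown here as the 250 bases before the annotated start of each gene, 5′ to 3′ on the strand of the gene. Capitals mark the letters TATAA, found on either strand.
Ccl3, chr11:83649379-83649628, minus strand: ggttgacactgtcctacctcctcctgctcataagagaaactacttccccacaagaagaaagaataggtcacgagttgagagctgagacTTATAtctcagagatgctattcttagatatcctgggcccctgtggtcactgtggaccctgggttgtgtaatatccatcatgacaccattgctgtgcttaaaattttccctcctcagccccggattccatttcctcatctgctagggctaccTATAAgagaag
Ccl8, chr11:82114935-82115184, plus strand: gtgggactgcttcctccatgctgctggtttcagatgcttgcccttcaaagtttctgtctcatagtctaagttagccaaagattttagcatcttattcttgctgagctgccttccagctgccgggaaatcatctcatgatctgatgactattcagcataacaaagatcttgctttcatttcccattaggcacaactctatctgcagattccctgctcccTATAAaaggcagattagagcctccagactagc
Ccl12, chr11:82101595-82101844, plus strand: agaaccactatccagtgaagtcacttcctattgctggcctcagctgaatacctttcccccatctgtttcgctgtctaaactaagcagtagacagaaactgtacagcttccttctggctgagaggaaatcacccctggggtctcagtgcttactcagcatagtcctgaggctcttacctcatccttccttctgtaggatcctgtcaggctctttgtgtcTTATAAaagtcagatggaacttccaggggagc
Counting back from −1 just before the start, TATAA lay on the strand of the gene at −32 to −28 in Ccl8, at −31 to −27 in Ccl12 and at −11 to −7 in Ccl3. In Ccl12 it overlapped a match on the other strand at −32 to −28, and Ccl3 had another on the opposite strand at −162 to −158. These letters were searched for after the sequences had been seen, and 24.9% of the 32851 promoters of the table, each of 300 bases up to 50 bases past the start, hold them on either strand. The motifs AP-1 (TGANTCA with C or G in the middle), the palindrome of STAT6 (TTCNNNNGAA), the NF-kB consensus and the full estrogen response element (GGTCANNNTGACC) were searched on both strands of the 300 bases. They occurred in 5.20%, 6.95%, 8.46% and 0.0700% of all promoters, respectively, and none occurred in the promoters of Ccl3, Ccl8, Ccl12 or Ccr2. This says only that these letters are not in these windows.

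**Figure D2:**
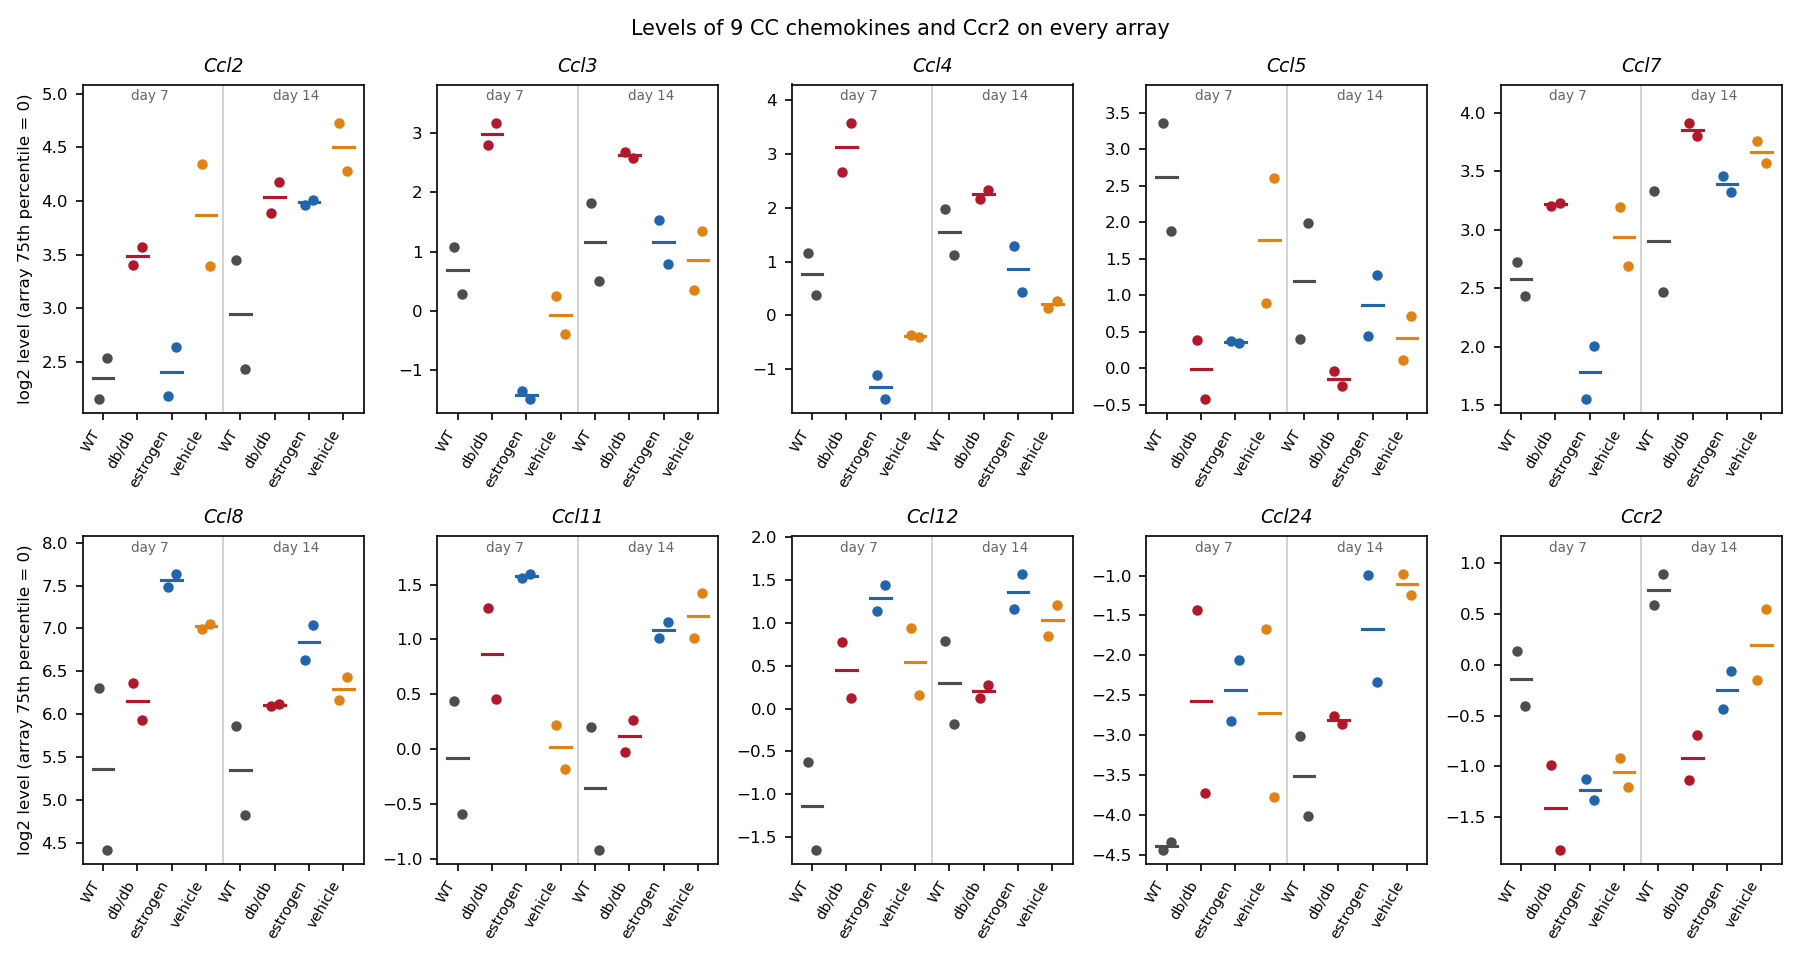
Log2 level of each gene (y axis, 0 is the 75th percentile of the array) on each of the 16 arrays, by group and labelled day; points are single arrays (replicate 1 left, replicate 2 right) and bars are group means, and each panel has its own y axis. Ccl3 and Ccl4 peaked in untreated db/db wounds and were lowest with estrogen on labelled day 7, Ccl8 was highest with estrogen, and Ccr2 was highest in WT wounds on labelled day 14.

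Ccl3 and Ccl4 encode MIP-1α and MIP-1β, made early by activated macrophages and neutrophils. Their ranges were the widest of the 10 genes. Over the 16 arrays Ccl3 spanned 25.2-fold and Ccl4 35.0-fold. For labelled day 7, the log2 level of Ccl3 was 1.08 and 0.28 on the WT arrays, 2.80 and 3.17 on the db/db arrays, −1.35 and −1.48 with estrogen, and 0.25 and −0.38 with vehicle. The db/db arrays lay above all others and the estrogen arrays below all others. Ccl3 was 4.94-fold higher in db/db than in WT (log2 fold change 2.30 ± 0.49, SE, adjusted p = 0.0151). It fell 21.1-fold with estrogen against db/db (−4.40 ± 0.49, adjusted p = 0.00139) and was also called lower with vehicle, at 8.29-fold (−3.05 ± 0.49), where its adjusted p was 0.0518. Both treated groups were set against the same db/db arrays.

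Ccl4 had log2 levels of 1.16 and 0.38 in WT, 2.67 and 3.58 in db/db, −1.11 and −1.55 with estrogen, and −0.36 and −0.40 with vehicle on labelled day 7. The order of the groups was that of Ccl3, and no group overlapped another. It was 5.12-fold higher in db/db than in WT (2.36 ± 0.41, adjusted p = 0.00735), 21.9-fold lower with estrogen than in db/db (−4.45 ± 0.41, adjusted p = 0.000637), and 11.4-fold lower with vehicle than in db/db (−3.51 ± 0.41, adjusted p = 0.0205). Between db/db and WT the differences were 1.72 for Ccl3 and 1.51 for Ccl4 on slide 1, and 2.89 and 3.20 on slide 2. On slide 1 alone the differences with estrogen against db/db were −4.15 for Ccl3 and −3.78 for Ccl4, and on slide 2 they were −4.65 and −5.13. With vehicle they were −2.55 and −3.03 on slide 1, and −3.55 and −3.99 on slide 2. Both genes were thus lower in each treated group on each slide of labelled day 7.

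On the arrays labelled day 14, Ccl3 stood at 1.81 and 0.51 in WT, 2.69 and 2.58 in db/db, 1.54 and 0.80 with estrogen, and 0.35 and 1.35 with vehicle. The db/db arrays were again the highest, while the other 3 groups overlapped. The difference was 1.47 ± 0.49 between db/db and WT (adjusted p = 0.0588), −1.47 with estrogen (adjusted p = 0.376) and −1.78 with vehicle (adjusted p = 0.134), on the log2 scale with the same SE. Ccl4 stood at 1.98 and 1.12 in WT, 2.17 and 2.33 in db/db, 1.29 and 0.43 with estrogen, and 0.14 and 0.27 with vehicle. Its difference between db/db and WT was 0.70 ± 0.41 and was not called (adjusted p = 0.261), although the groups did not overlap. Against db/db, Ccl4 was called lower with estrogen (−1.39, adjusted p = 0.314) and with vehicle (−2.04, adjusted p = 0.0827). Slide 3 held the db/db arrays together with replicate 1 of each treated group, and within it the differences from db/db were −1.10 for Ccl3 and −0.96 for Ccl4 with estrogen, and −2.28 and −2.10 with vehicle. Without db/db + estrogen replicate 2 the estrogen calls of both genes on labelled day 14 were lost (−1.10 and −0.96), without db/db replicate 1 that of Ccl3 was lost (−1.41), and without WT replicate 2 that of Ccl3 between db/db and WT was lost (0.82). With slide as a fixed block the last was also lost, at 1.60.

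Ccl5, or RANTES, is made by T cells and NK cells among others. Ccl5 and Ccr2 were the members with a higher mean in WT than in db/db on both labelled days. Among the arrays labelled day 7 its log2 level was 3.36 and 1.88 in WT, 0.39 and −0.42 in db/db, 0.37 and 0.34 with estrogen, and 0.89 and 2.61 with vehicle. The WT arrays lay above the db/db and estrogen arrays but overlapped the vehicle arrays. In db/db wounds Ccl5 was 6.22-fold below WT (−2.64 ± 0.70, adjusted p = 0.0353), at −2.97 on slide 1 and −2.30 on slide 2. With vehicle it was called higher than in db/db (1.76 ± 0.70, adjusted p = 0.318), at 0.50 on slide 1 and 3.02 on slide 2, a call that was lost without db/db + vehicle replicate 2 (0.91), without db/db replicate 2 (1.36) and in a fit of the 4 arrays alone. For labelled day 14, the levels were 0.39 and 1.98 in WT, −0.04 and −0.25 in db/db, 0.44 and 1.28 with estrogen, and 0.11 and 0.71 with vehicle, and the difference between db/db and WT was −1.33 ± 0.70 (adjusted p = 0.205).

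Ccl2, or MCP-1, is the main chemokine for CCR2+ monocytes. Its log2 level on labelled day 7 was 2.15 and 2.54 in WT, 3.40 and 3.57 in db/db, 2.18 and 2.64 with estrogen, and 4.34 and 3.40 with vehicle. The estrogen arrays lay within reach of the WT arrays, and the db/db and vehicle arrays above both. Ccl2 was called higher in db/db than in WT, 2.21-fold (1.14 ± 0.38, adjusted p = 0.0750), and lower with estrogen than in db/db, 2.12-fold (−1.08 ± 0.38, adjusted p = 0.139). The difference between estrogen and WT was 0.06, with a 95% interval from −0.78 to 0.91. With vehicle the level differed from db/db by 0.38 (interval −0.46 to 1.23). Among the arrays labelled day 14 the levels were 3.45 and 2.43 in WT, 3.89 and 4.18 in db/db, 3.97 and 4.01 with estrogen, and 4.73 and 4.28 with vehicle. All 3 db/db groups lay above the WT arrays. Ccl2 was called higher in db/db than in WT (1.09 ± 0.38, adjusted p = 0.0697), and the estrogen group differed from db/db by −0.05 (interval −0.89 to 0.80). The call of labelled day 7 between db/db and WT was lost without WT replicate 1 (0.95) or db/db replicate 2 (1.05), and that of labelled day 14 without WT replicate 2 (0.58), without db/db replicate 2 (0.95), with slide as a fixed block (0.89) and in a fit of the 4 arrays alone. The call with estrogen was lost without db/db + estrogen replicate 1 (−0.85), without db/db replicate 2 and with quantile normalization (both −0.99).

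Ccl7, or MCP-3, also acts on CCR2 and had the narrowest range of the 10 genes, 5.14-fold. In wounds labelled day 7 it stood at 2.72 and 2.43 in WT, 3.21 and 3.23 in db/db, 1.56 and 2.01 with estrogen, and 3.19 and 2.69 with vehicle. The estrogen arrays lay below those of every other group. Ccl7 fell 2.71-fold with estrogen against db/db (−1.44 ± 0.28, adjusted p = 0.0177), at −1.65 on slide 1 and −1.22 on slide 2. With vehicle the difference from db/db was −0.27 (interval −0.90 to 0.35). In wounds labelled day 14 it stood at 3.33 and 2.47 in WT, 3.92 and 3.80 in db/db, 3.46 and 3.33 with estrogen, and 3.76 and 3.57 with vehicle, where the db/db arrays were the highest. The difference between db/db and WT on that labelled day was 0.96 ± 0.28 (adjusted p = 0.0402), which passed the adjusted threshold but was under 2-fold.

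Ccl8, or MCP-2, had the opposite order to Ccl7 with regard to estrogen. On labelled day 7 its log2 level was 6.31 and 4.42 in WT, 6.37 and 5.93 in db/db, 7.49 and 7.63 with estrogen, and 6.99 and 7.06 with vehicle. The estrogen arrays lay above all others and the vehicle arrays above the db/db arrays, while the WT arrays were far apart. Ccl8 was called higher with estrogen than in db/db, 2.65-fold (1.41 ± 0.52, adjusted p = 0.158). With vehicle the difference from db/db was 0.87 ± 0.52 (interval −0.28 to 2.03) and was not called. On labelled day 14 the levels were 5.86 and 4.83 in WT, 6.10 and 6.12 in db/db, 6.63 and 7.05 with estrogen, and 6.16 and 6.43 with vehicle. The order was the same, but the difference between estrogen and db/db was 0.73 ± 0.52 and was not called. Between estrogen and WT, Ccl8 differed by 2.20 on labelled day 7 (4.59-fold, adjusted p = 0.0424) and by 1.49 on labelled day 14 (adjusted p = 0.0915). The call against db/db was lost without db/db + estrogen replicate 1 (1.48) or replicate 2 (1.34) and without db/db replicate 2 (1.19).

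Ccl12, or MCP-5, is a ligand of CCR2 in mice. For labelled day 7, its log2 level was −0.63 and −1.65 in WT, 0.77 and 0.13 in db/db, 1.13 and 1.44 with estrogen, and 0.94 and 0.16 with vehicle. The WT arrays lay below all others. Ccl12 was 3.01-fold higher in db/db than in WT (1.59 ± 0.43, adjusted p = 0.038, at 1.40 on slide 1 and 1.78 on slide 2), 5.37-fold higher with estrogen than in WT (2.42, adjusted p = 0.0128), and 3.22-fold higher with vehicle than in WT (1.69, adjusted p = 0.0416). For labelled day 14, the WT arrays stood at 0.79 and −0.18, the db/db arrays at 0.12 and 0.28, the estrogen arrays at 1.16 and 1.57, and the vehicle arrays at 0.85 and 1.21. The db/db arrays now lay between the WT arrays (difference −0.10, interval −1.06 to 0.86), while both treated groups lay above them. The estrogen group was called higher than db/db (1.16 ± 0.43, adjusted p = 0.453), and this was lost without db/db + estrogen replicate 2 (0.95), without db/db replicate 1 (1.08) or replicate 2 (1.24), and with slide as a fixed block (0.97).

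Ccl11, or eotaxin-1, stood at 0.44 and −0.59 in WT, 1.28 and 0.46 in db/db, 1.56 and 1.60 with estrogen, and 0.22 and −0.18 with vehicle on labelled day 7. The estrogen arrays were the highest, and the vehicle arrays lay among the WT arrays. None of the differences from db/db was called on that labelled day (0.71 ± 0.43 with estrogen and −0.85 ± 0.43 with vehicle). Among the arrays labelled day 14 the levels were 0.21 and −0.92 in WT, −0.03 and 0.27 in db/db, 1.01 and 1.16 with estrogen, and 1.01 and 1.42 with vehicle. Both treated groups then lay above the db/db and WT arrays. Ccl11 was called higher with vehicle than in db/db (1.09 ± 0.43, adjusted p = 0.236). The difference with estrogen was 0.97 ± 0.43, under 2-fold (adjusted p = 0.557). The vehicle call was lost without db/db + vehicle replicate 2 (0.89), without db/db replicate 1 (0.95) or replicate 2 (1.24), with normexp background correction (0.98) and with slide as a fixed block (0.96).

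Ccl24, or eotaxin-2, had the largest SE of the 10 genes, 0.82 on the log2 scale. Among the arrays labelled day 7 its log2 level was −4.44 and −4.34 in WT, −1.43 and −3.72 in db/db, −2.82 and −2.06 with estrogen, and −1.67 and −3.77 with vehicle. WT arrays were the lowest, and replicate 1 stood above replicate 2 in both the db/db and vehicle groups. The difference between db/db and WT was 1.81 ± 0.82 (interval −0.01 to 3.64, adjusted p = 0.172), at 3.01 on slide 1 and 0.62 on slide 2. In wounds labelled day 14 it stood at −3.01 and −4.01 in WT, −2.75 and −2.86 in db/db, −0.99 and −2.33 with estrogen, and −0.98 and −1.24 with vehicle. WT arrays were again the lowest, and the vehicle group had the highest mean. The difference between vehicle and db/db was 1.69 ± 0.82 (interval −0.14 to 3.52) and was not called, and that between vehicle and WT was 2.40 ± 0.82 (5.26-fold, adjusted p = 0.0816).

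Ccr2 is the receptor for Ccl2, Ccl7 and Ccl12 on inflammatory monocytes. In wounds labelled day 7 its log2 level was 0.14 and −0.41 in WT, −0.99 and −1.82 in db/db, −1.13 and −1.33 with estrogen, and −0.92 and −1.20 with vehicle. On labelled day 14 it was 0.59 and 0.89 in WT, −1.13 and −0.69 in db/db, −0.43 and −0.06 with estrogen, and −0.15 and 0.55 with vehicle. On both labelled days every WT array lay above every array of the 3 db/db groups. Compared with WT, Ccr2 in db/db was 2.41-fold lower on labelled day 7 (−1.27 ± 0.34, adjusted p = 0.0362), at −1.13 on slide 1 and −1.42 on slide 2, and 3.15-fold lower on labelled day 14 (−1.65 ± 0.34, adjusted p = 0.0102). With vehicle it was called higher than in db/db on labelled day 14 (1.11 ± 0.34, adjusted p = 0.157), and with estrogen the difference was 0.67 ± 0.34 (interval −0.09 to 1.42). The call of labelled day 7 was lost without WT replicate 1 (−0.996) and without db/db replicate 2 (−0.85). The vehicle call was lost without db/db + vehicle replicate 2 (0.76), without db/db replicate 1 (0.89) and with slide as a fixed block (0.84).

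**Figure D3:**
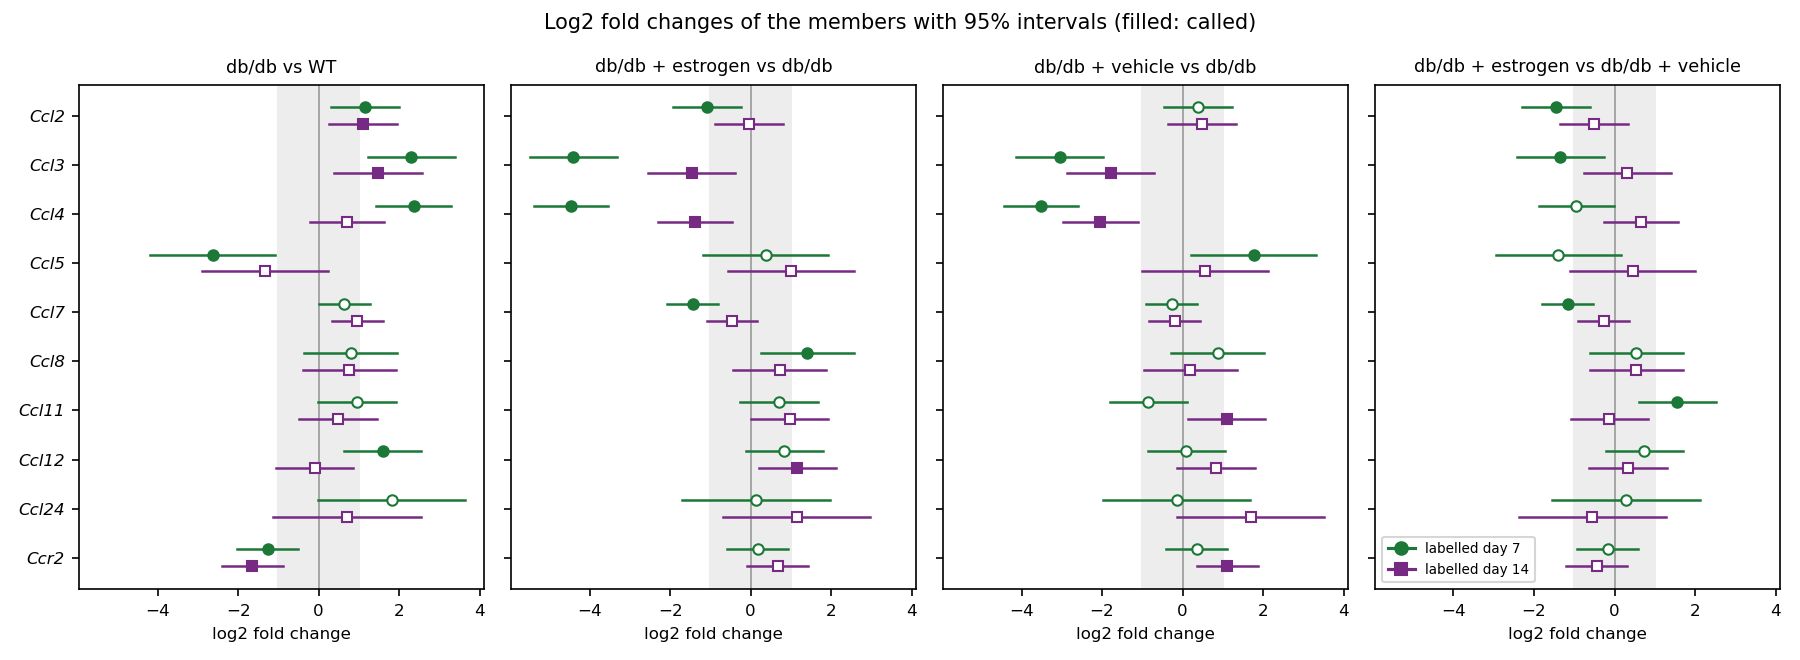
Log2 fold change of each gene (x axis) with its 95% interval from limma in 4 comparisons, for labelled day 7 (circles) and labelled day 14 (squares); filled symbols were called, and the grey band spans changes under 2-fold. The falls of Ccl3 and Ccl4 against db/db on labelled day 7 lie far outside the band with estrogen (−4.40 and −4.45) and with vehicle (−3.05 and −3.51), and Ccr2 lies left of the band between db/db and WT on both labelled days.

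The direct comparison of the estrogen with the vehicle group addresses what estrogen added to the oil. On labelled day 7 the estrogen group was lower in Ccl2 (−1.46 ± 0.38, adjusted p = 0.0653), Ccl7 (−1.16 ± 0.28, adjusted p = 0.0557) and Ccl3 (−1.35 ± 0.49, adjusted p = 0.153). It was higher in Ccl11 (1.56 ± 0.43, adjusted p = 0.0797). None passed the adjusted threshold. For Ccl2 the arrays did not overlap, and the differences were −2.17 on slide 1 and −0.76 on slide 2. Those of Ccl11 were 1.34 and 1.78. Ccl4, which was called lower in both treated groups against db/db, differed between them by −0.95 (interval −1.87 to −0.02), under 2-fold. The call of Ccl2 was lost without db/db + vehicle replicate 1 (−0.99). That of Ccl7 was lost without the same array (−0.91) and without db/db + estrogen replicate 1 (−0.94), and that of Ccl3 without db/db + vehicle replicate 1 (−1.03), db/db + estrogen replicate 1 (−1.41) or db/db + estrogen replicate 2 (−1.29). The 10 differences of labelled day 14 ran from −0.55 for Ccl24 to 0.65 for Ccl4.

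Effects of the same treatment were set against each other between the labelled days by a contrast of the same model. The effect of estrogen against db/db was smaller in size on labelled day 14 by 3.07 ± 0.58 log2 units for Ccl4 (adjusted p = 0.116) and by 2.93 ± 0.69 for Ccl3 (adjusted p = 0.180). Ccl11 moved in opposite directions with vehicle, −0.85 on labelled day 7 and 1.09 on labelled day 14, a difference of 1.95 ± 0.61 (adjusted p = 0.886). None of the 10 genes passed the adjusted threshold in any of these contrasts. Within the estrogen group itself, the arrays labelled day 14 were higher than those labelled day 7 in Ccl3 (2.58 ± 0.49, adjusted p = 0.0132), Ccl4 (2.19 ± 0.41, adjusted p = 0.0134), Ccl7 (1.61 ± 0.28, adjusted p = 0.0107) and Ccl2 (1.58 ± 0.38, adjusted p = 0.0282). In the untreated db/db group the same differences were −0.35, −0.88, 0.64 and 0.55, with adjusted p from 0.168 to 0.684. Means of these genes were also higher on labelled day 14 in the vehicle and WT groups. With vehicle they went from −0.07 to 0.85 (Ccl3), −0.38 to 0.21 (Ccl4), 2.94 to 3.67 (Ccl7) and 3.87 to 4.51 (Ccl2). In WT they went from 0.68 to 1.16, 0.77 to 1.55, 2.58 to 2.90 and 2.34 to 2.94, in that order. Labelled day and slide cannot be told apart in these values.

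Other receptors of the family were set beside the ligands. Ccr1, a receptor of Ccl3 and Ccl5, was not well above background on either WT array of labelled day 7. It passed the filter through the db/db arrays alone, where it was at least 3.78-fold higher. Its adjusted p of 0.0125 belongs to the fitted change (2.92 ± 0.58), which used WT signals below background, and not to this bound. In wounds labelled day 14 Ccr1 was well above background in all groups and the difference was 0.16 ± 0.58. Ccr3, the receptor of the eotaxins, differed by −0.83 ± 0.45 and −0.27 ± 0.45 between db/db and WT, and Ccr8 by 1.095 ± 0.38 (called, with adjusted p = 0.0862) and 0.97 ± 0.38. Ccr8 was also called lower with estrogen than in db/db on labelled day 7 (−1.13 ± 0.38, adjusted p = 0.125).

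The list of 15 chemokine receptors, which includes Ccr1, Ccr3 and Ccr8, had 14 that could be tested between db/db and WT on labelled day 7. Of these, 4 were called higher (background 5.68%), Ccr1 and Ccr8 among them, and 2 lower (background 8.42%), with a median log2 fold change of −0.47. With estrogen against db/db on labelled day 7, 1 was called higher (background 5.22%) and 2 lower (background 4.7%), Ccr8 among the latter. The higher count was near its background. Ccrl2, an atypical receptor that binds chemerin, was the largest fall among them, from −0.88 and −0.28 in db/db to −3.15 and −3.08 with estrogen (−2.54 ± 0.40, adjusted p = 0.00632). It was higher in db/db than in WT on labelled day 14 (1.61 ± 0.40, adjusted p = 0.0212). Cx3cr1, the fractalkine receptor of patrolling monocytes, was lower in db/db than in WT on labelled day 7 (−2.55 ± 0.71, adjusted p = 0.0417), as was Ccr7, which brings dendritic cells and T cells to lymph nodes (−2.02 ± 0.49, adjusted p = 0.0267).

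**Figure D4:**
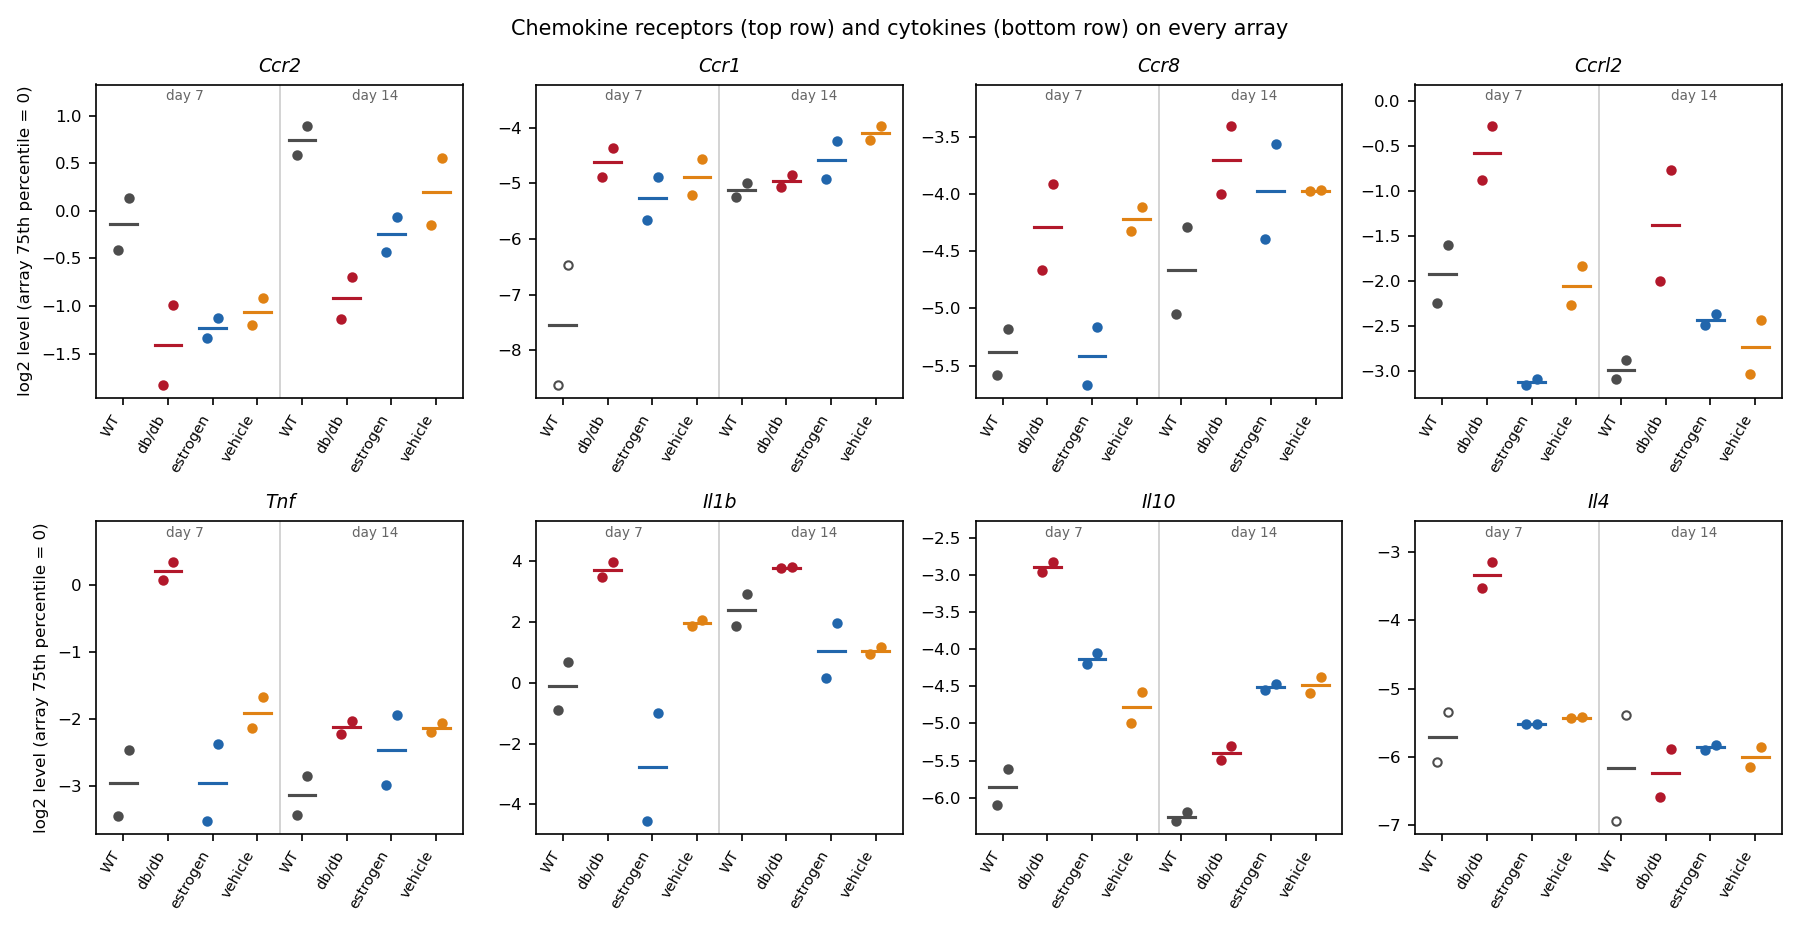
Log2 levels (y axis, 0 is the 75th percentile of the array) of 4 receptors (top) and 4 cytokines (bottom) by group and labelled day; points are the 2 arrays of a group in order of level, open where not both were well above background, and bars are means. Ccr2 is highest in WT on both labelled days, Ccr1 is not well above background in WT on labelled day 7, and Tnf, Il10 and Il4 stand out in the db/db arrays of labelled day 7.

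Among the 14 other CC, CX3C and XC chemokines listed, 10 were tested between db/db and WT on labelled day 7. Of these, 1 was called higher (background 5.68%) and 5 were called lower (background 8.42%), with a median of −1.52. The member called higher was Ccl9, a CCR1 ligand (1.48 ± 0.36, adjusted p = 0.0267). The keratinocyte chemokine Ccl27a, which draws CCR10+ T cells to the skin, was lower (−3.59 ± 0.67, adjusted p = 0.00966), as was Cx3cl1 (−2.16 ± 0.51, adjusted p = 0.0235). Ccl28, another ligand of CCR10, was not well above background on the db/db arrays. It was at least 6.39-fold lower there on labelled day 7 and at least 4.98-fold lower on labelled day 14. The adjusted p of 0.00374 and 0.00054 belong to the fitted changes, which used db/db signals below background, and not to these bounds. With estrogen against db/db on labelled day 7, 2 of 10 were called higher (Ccl27a, 1.96 ± 0.67, and Ccl28, at least 2.03-fold) and none lower. Neither passed the adjusted threshold, and the fitted change of Ccl28 (adjusted p = 0.0834) again used db/db signals below background. Of all probes, 5.22% were called higher and 4.7% lower in that comparison.

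Cytokines known to induce the 9 ligands were listed as well. Of 14, 11 were tested between db/db and WT on labelled day 7, and 5 were called higher (background 5.68%) and 1 lower (background 8.42%, median 1.69). With estrogen against db/db on that labelled day, 7 of 11 were called lower (median −1.38, background 4.7%), and with vehicle 3 of 11 (median −0.77, background 2.3%). Tnf, which induces many chemokines through NF-kB, stood at −3.44 and −2.46 in WT, 0.07 and 0.34 in db/db, −3.52 and −2.37 with estrogen, and −2.13 and −1.67 with vehicle. The db/db arrays were the highest, as for Ccl3 and Ccl4. The difference with estrogen against db/db was −3.14 ± 0.46 (adjusted p = 0.00509) and that with vehicle −2.10 ± 0.46 (adjusted p = 0.113). Il1b fell further with estrogen, by 6.48 ± 1.01 on the log2 scale (adjusted p = 0.0063). Il10 and Il4, cytokines that dampen or skew macrophage activation, were also higher in db/db than in WT on labelled day 7 (2.97 ± 0.20, adjusted p = 6.46e-05, and 2.37 ± 0.44, adjusted p = 0.00962). Il4 was well above background on 1 of the 2 WT arrays. Ifng, the product of T helper type 1 and NK cells, was lower in db/db on labelled day 14 (−3.57 ± 0.88, adjusted p = 0.0211), where it was well above background on 1 of 2 arrays, and was called lower on labelled day 7 (−2.55, adjusted p = 0.0848).

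Markers of the cells that make or follow these chemokines moved with some of the differences. Of the 10 macrophage and monocyte genes tested between db/db and WT, 6 were called higher (background 5.68%) and 1 lower (background 8.42%) on labelled day 7 (median 1.11). The counts of labelled day 14 were 4 (background 2.36%) and 1 (background 15.6%), with a median of 0.93. The summed linear level of the list, relative to the 75th percentile, was 62.6 to 93.3 in WT and 147 to 166 in db/db on labelled day 7. With estrogen it was 126 to 141 and with vehicle 113 to 120, and Csf1r was the brightest gene in the sum. The median log2 fold change of the list with estrogen on labelled day 7 was −0.30 against db/db and 0.35 against WT. Of the 10 genes 1 was called higher and 3 lower with estrogen against db/db on labelled day 7 (background 5.22% and 4.7%). With vehicle the counts were 0 and 2 (background 2.52% and 2.3%). Csf1r stood at 5.56 and 5.65 in db/db and at 5.89 and 6.11 with estrogen, and the mean of C1qb was 4.39 and 3.91. Of 9 neutrophil genes, 6 were called higher in db/db than in WT on labelled day 7 (median 5.72, background 5.68%). On the WT arrays 1 to 2 of the 9 were not well above background, so some fold changes rest on signals near background. With estrogen against db/db on that labelled day 8 of the 9 genes were called lower (median −5.49, background 4.7%). S100a8 and S100a9 are the brightest contributors to the summed level of the list. That sum was 350 to 392 in WT, 445 to 517 in db/db and 50.2 to 65.0 with estrogen. The means of S100a8 and S100a9 were 6.55 and 7.69 in WT, and 7.30 and 7.75 in db/db. S100a8 and S100a9 fell by 5.49 and 4.65 on the log2 scale with estrogen (adjusted p = 0.00053 and 0.00144), whereas with vehicle they differed from db/db by 0.16 and 0.12. With vehicle 4 of the 9 neutrophil genes were called lower than in db/db (median −3.01, background 2.3%). S100a8 and S100a9 were not called there, and the summed level was 462 to 488. On labelled day 7 the keratinocyte gene Krt16 had means of 6.67 in db/db, 3.85 with estrogen and 7.55 with vehicle. The means of Krt5 were 6.58, 7.64 and 7.30 in the same order. The part of these cells in the levels of the chemokines was not tested.

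The eosinophil list had 6 of 8 genes that could be tested, and Epx and Prg3, which define eosinophil granules, were not well above background on any array. Between db/db and WT 1 was called higher and 0 lower on labelled day 7 (background 5.68% and 8.42%), and 1 and 2 on labelled day 14 (background 2.36% and 15.6%). With estrogen against db/db on labelled day 7, 3 of the 6 were called lower and 0 higher (median −0.51, background 4.7% and 5.22%), while 3 had a positive log2 fold change. With vehicle 2 were called lower and 0 higher (median −0.76, background 2.3% and 2.52%). The summed level of the list on labelled day 7 was 2.15 to 2.41 in WT and 1.45 to 2.50 in db/db. With estrogen it was 2.83 to 2.87 and with vehicle 0.66 to 1.96. The brightest probes of the list, Ear1 and Ear2, belong to a family of close copies, so that a probe may read several of them. For labelled day 7, Ear2 had a mean level of 0.31 in db/db, 1.08 with estrogen and −0.44 with vehicle. Ear1 had −1.47, −0.74 and −2.23 in the same order. Neither was called against db/db in either treated group. Of 10 T cell genes, 5 were called lower in db/db than in WT on each labelled day and 0 higher (medians −1.17 and −1.10), and of 6 NK cell genes 4 and 1 were called lower (medians −1.58 and −0.91), where 8.42% and 15.6% of all probes were called lower. The NK cell count of labelled day 14 was near that background. The summed T cell level was 6.29 to 9.86 in WT and 5.64 to 5.97 in db/db on labelled day 7, the mean of Cd4 was 1.90 and 1.93, and that of Gzma 1.40 and 0.39. The keratinocyte list, with summed levels of 552 to 609 in WT and 306 to 406 in db/db, and the fibroblast list, with 859 to 974 and 725 to 739 on labelled day 7, gave markers of both epidermis and dermis on these arrays. Dendritic cell genes had 3 of 5 called lower in db/db on labelled day 7 (background 8.42%) and mast cell genes 4 of 7 called higher (background 5.68%). None of 6 endothelial and 7 skeletal muscle genes was called, and 1 of 5 adipocyte genes was called higher (background 5.68%). The part of any of these cells was not tested.

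**Figure D5:**
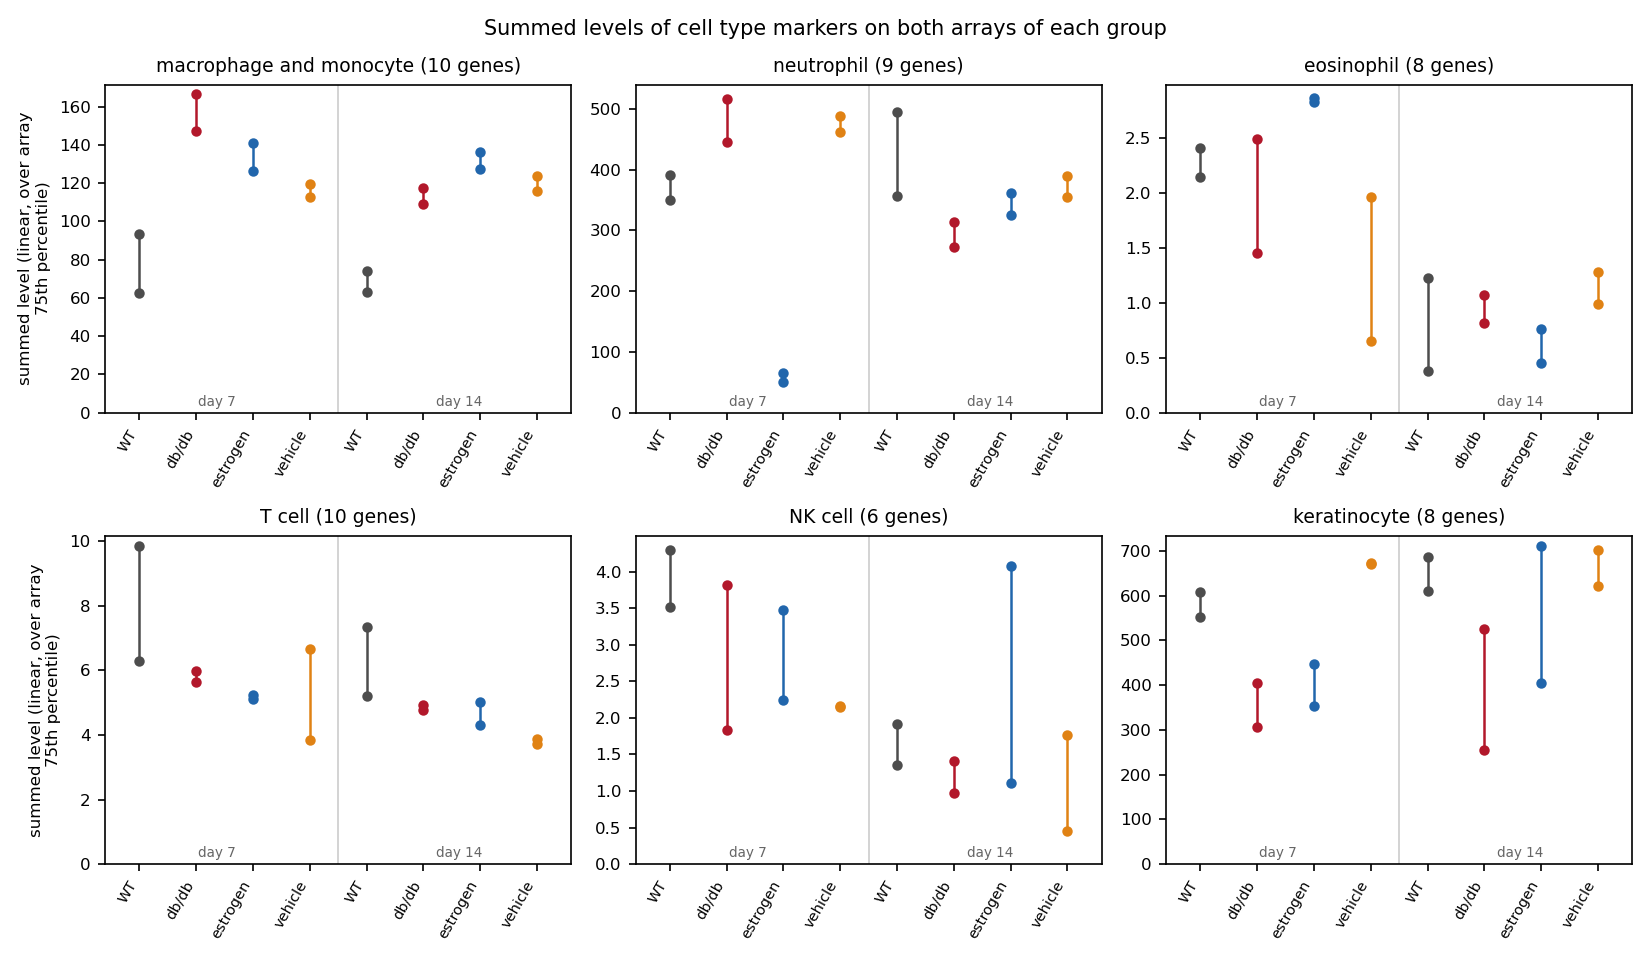
Summed linear level of the markers of 6 cell types relative to the 75th percentile of the array (y axis from 0), by group and labelled day; points are the lower and the higher array of each group, joined by a line. Macrophage and monocyte markers are lowest in WT. The neutrophil sum, to which S100a8 and S100a9 are the brightest contributors, is 50.2 to 65.0 with estrogen and 462 to 488 with vehicle on labelled day 7. There 4 of its 9 genes were called lower with vehicle than in db/db (background 2.3%).

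The genes of the most alike pattern were found by the root mean square difference of log2 levels over the 16 arrays, each gene centred on its own mean, among 19989 named probes well above background on all arrays. Ccl3 and Ccl4 were each other's nearest gene (0.40), followed by Samsn1 for Ccl3 (0.63) and Upp1 for Ccl4 (0.71), against standard deviations of 1.36 and 1.37 of the 2 chemokines themselves. For Ccl2 the nearest were Hmox1 (0.36) and Gstcd (0.38), and for Ccl7 Tnfrsf22 (0.27) and Man2a1 (0.28). Ccl8 was nearest to Rgs18 (0.38) and Ptpro (0.43), and Ccl12 to Dab2 (0.39) and Nxpe5 (0.39). Ccl5 was nearest to Il2rb (0.52), a receptor chain of T cells and NK cells, and Nsg2 (0.53). Ccl11 was nearest to Pdgfra (0.37), a fibroblast receptor, and Etv1 (0.38), Ccl24 to Cyp7b1 (0.58) and Ednrb (0.59), and Ccr2 to Mbnl3 (0.40) and Socs1 (0.43). The other members had standard deviations from 0.65 (Ccl7) to 1.14 (Ccl24), with 1.04 for Ccl5 and 0.74 for Ccl11. The measure describes likeness on these arrays, which share slides and groups. Whether genes of like pattern come from the same cells was not tested.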

How the data were processed

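Wound RNA was measured on 16 Agilent 4 x 44K mouse arrays in 1 colour. The authors deposited, for each array, spot intensity values made with Feature Extraction 11.0.1.1, background-subtracted and spatially detrended but not scaled between arrays, together with the median pixel intensity of spot and background and marks for outlier, saturated and well above background spots. The deposited series matrix holds, as a linear ratio, the intensity divided by 1 constant per array, within 0.1% for 99.4% or more (rounded) of its 34643 probes. The filters the authors applied in GeneSpring are not named in the sources used here.

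Outlier spots were left out, spots of a probe were averaged, and log2 values were centred on the 75th percentile of each array. No spot was saturated. A RefSeq table named 27427 of 39429 probes (69.6%). limma 3.58.1 in R 4.3.3 was fitted to the 8 groups (8 residual degrees of freedom), with two-sided p-values, for probes that were well above background throughout 1 or both of the groups compared. The steps were tested on simulated data. With 2 arrays in a group, the number of arrays limits the precision. A fold change against a group below background is a lower bound, taken on each array against the lowest signal well above background, or against the probe's signal where that was higher. Groups and replicate numbers came from the deposited labels. The genes and lists were chosen with earlier results of these data known. Apart from the 10 genes, those named were Ccr1, Ccr3 and Ccr8, up to 3 per direction and list with the largest change past an adjusted p of 0.05 and a 2-fold change in db/db vs WT or estrogen vs db/db, the brightest 2 of each marker list, and the 2 most alike in pattern. Some of these markers appear in the counts only. Il1b, Tnf, Il10, Il4 and Ifng were named after their values were seen. Ccl21a, Cd68, Ly6c2 and Ly6g had no named probe. Some items of the lists are not reported here.

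The alternatives were normexp background correction (offset 50), quantile normalization, no or a strict filter on dim probes, a floor, the series matrix, a fit restricted to the 4 arrays of a comparison, the slide taken as fixed or random, a replicate block, adjusted p in the call and leaving out each array.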

Additional observations from a re-analysis of the deposited data

How the results depend on the processing

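Alternatives were run for the 28 calls on the 10 genes in the comparisons among db/db, WT, estrogen and vehicle whose counts the report gives, not for the treated groups against WT, the labelled days within a group or the other genes. None of these calls changed direction. Over the alternatives 362 values kept the call and 58 lost it, 18 of the latter by requiring an adjusted p below 0.05. The 362 include the settings of no filter, strict filter, floor and series matrix, each of which kept all 28 calls. These settings had little or no way to change a call. The 10 probes were well above background on every array, and the series matrix holds the same signal over a constant. That rule left 3 genes for estrogen against db/db and 1 for vehicle against db/db on labelled day 7, and 0 for both on labelled day 14, 1 for db/db against WT on labelled day 14, and 0 for estrogen against vehicle on labelled day 7. With slide as a fixed block 1 gene was called between db/db and WT on labelled day 14, where 18.0% of all probes were. Leaving out each array in turn gave 6 to 7 genes between db/db and WT on labelled day 7 and 1 to 7 on labelled day 14, the highest without WT replicate 1, where 23.2% of all probes were called, and the lowest without WT replicate 2, where 13.3% were. It gave 3 to 5 and 0 to 3 with estrogen against db/db, 2 to 3 and 2 to 5 with vehicle against db/db, and 2 to 4 and 0 to 1 between estrogen and vehicle, for labelled days 7 and 14. For all probes the share called ran from 12.8% to 15.4% and 13.3% to 23.2% between db/db and WT, 8.86% to 10.9% and 3.45% to 8.61% with estrogen, 3.73% to 8.98% and 5.08% to 7.6% with vehicle, and 7.64% to 9.17% and 1.15% to 7.06% between estrogen and vehicle. The lone array left in a group was taken to vary like the other groups.

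Whether the replicate numbers pair the samples is not settled. The correlation of deviations from the group means between arrays of the same number ran from −0.46 to 0.39. The highest value was between db/db and db/db + vehicle on labelled day 7, where the replicate number is also the slide. With 2 arrays a group these correlations cannot show whether samples were paired. With the replicate block 7 and 3 genes were called between db/db and WT, 5 and 3 with estrogen, 3 and 5 with vehicle against db/db, and 4 and 0 between estrogen and vehicle on labelled days 7 and 14. Of all probes, the block called 13.9% and 17.8%, 9.84% and 3.77%, 4.82% and 7.49%, and 8.82% and 1.04%, in the same order. The correlation within slides for the random block was −0.092. Every gene had a single probe, so the choice among probes could not be varied. Quantile normalization moved the median of all probes between db/db and WT on labelled day 14 from −0.12 to 0.07. It raised higher calls as a share of all calls from 13.1% to 32.2%, and from 40.3% to 52.2% on labelled day 7. The number of arrays, 2 a group, limits the precision, and Ccl24 had the largest SE of the 10 genes.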
